A study of Mus musculus with 4 samples.

Results

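The erythroid programme was followed in sorted blasts of a mouse leukemia of megakaryocyte type. It was taken as 35 genes of red cell development: globins and their chaperone, enzymes and carriers of heme and iron, the membrane skeleton, blood group antigens, red cell enzymes and late maturation genes, and 3 regulators. A gene was included through the probe sets that the array annotation pairs with that gene alone. This held for 32 of the 35 genes, out of 18193 genes with such a probe set on the array. Hbb-b1 had no probe set of its own, only one shared with other beta-globin copies, and Ahsp and Epb41 were not analysed here.

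The leukemia arose after retroviral insertional mutagenesis of fetal progenitors whose Gata1 gene was mutant (Gata1s in the series title), and the leukemic cells were tagged with GFP through the retrovirus. Blasts positive for GFP were sorted from peripheral blood and from spleen of 2 mice, without culture, so that each tissue had 2 arrays and each mouse gave both. All 4 samples share the Gata1 mutation, the retrovirus and a single leukemia name, T6(6), and none is of normal cells or of cells without the mutation. Strain, age and sex of the animals are not given in the labels. With 1 tissue pair per animal, replication is that of 2 mice.

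Red cells are made from progenitors that also give rise to megakaryocytes, and GATA1 acts in both lineages. The factor KLF1 then switches on genes of the red cell path, among them adult beta-globin, by binding CACCC sequences in their promoters. In the maturing erythroblast ALAS2 starts heme synthesis in the mitochondrion, transferrin receptor and mitoferrin bring in the iron, globin chains take up the heme, and the spectrin skeleton and its anchors build the membrane. Embryonic globins belong to the first red cells of the yolk sac and are silenced later.

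The values are intensities on a linear scale, one per probe set. For each gene the brightest one-gene probe set was used, and differences are on the log2(intensity + 16) scale with values below 0 set to 0. A gene was tested if its mean reached that of the median probe set, an intensity of 106. Of the 32 genes, 26 reached this filter and 6 did not: Hba-a1, Hbb-bh1, Hbb-y, Alas2, Epb42 and Rhd. Epb42 lay just below the filter with a mean intensity of 106, and Bpgm, the dimmest gene above it, had a mean of 217. Probes differ in how brightly they report a transcript, so no gene's level is set against another's. Pairs of intensities are given as blood and then spleen of the same mouse. Array medians lay between 103.7 and 110.6. The blasts carried the platelet granule gene Pf4 at 7507 to 8680, the platelet integrin chain Itga2b at 4237 to 4990 and the platelet receptor subunit Gp9 at 1835 to 2199 over the 4 arrays.

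**Figure D1:**
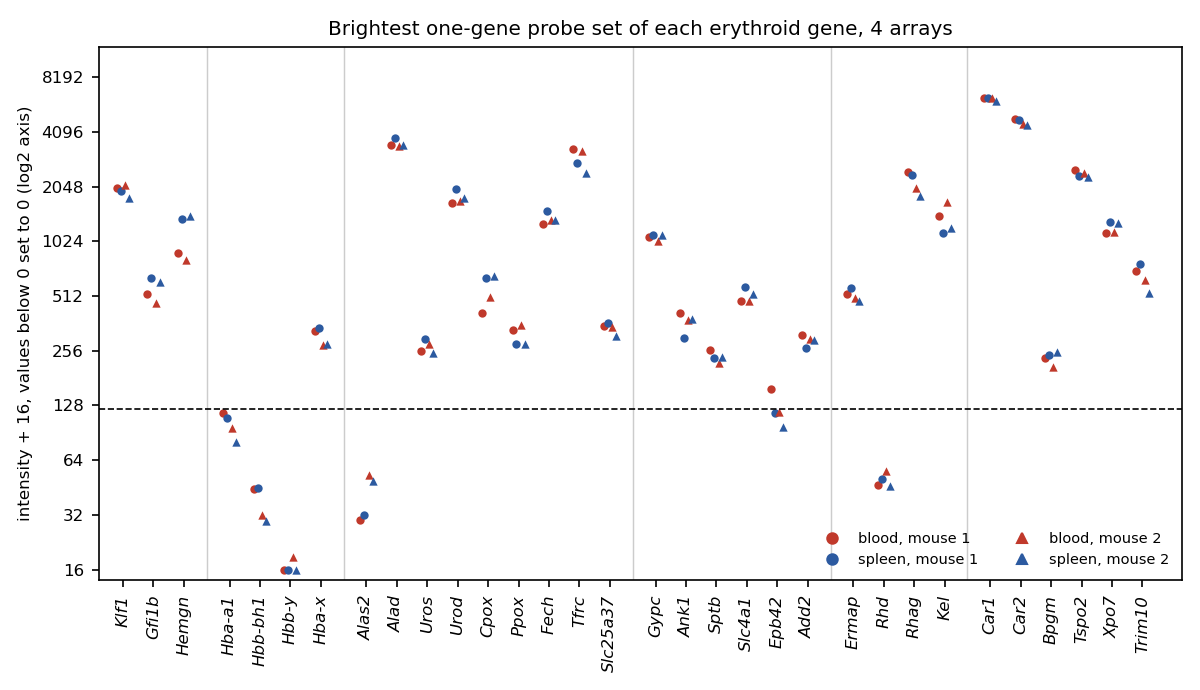
Intensity of the brightest one-gene probe set of each of 32 erythroid genes on the 4 arrays, as intensity + 16 on a log2 axis, ordered by role (regulators, globins, heme and iron, membrane skeleton and anion channel, blood group antigens, red cell enzymes and late maturation). Red is blood, blue is spleen, circles are mouse 1 and triangles mouse 2; the dashed line is the brightness filter at an intensity of 106, and most genes lie above it while Alas2, Rhd and the embryonic beta-like globins lie well below.

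The regulators were all present. Klf1 read 2007 and 1924 in mouse 1, and 2081 and 1762 in mouse 2. Both spleen arrays were therefore below both blood arrays, by a small amount, with a log2 difference of spleen minus blood of -0.15 ± 0.12 (SE, 2 arrays per tissue; limma adjusted p = 0.629). Gfi1b, a transcriptional repressor needed for both erythroid cells and megakaryocytes, was at 511 and 627 in mouse 1 and at 450 and 599 in mouse 2. Hemgn, a nuclear protein of blood progenitors and erythroid cells, was at 870 and 1349 in mouse 1 and at 789 and 1399 in mouse 2. For both genes the 2 spleen arrays stood above the 2 blood arrays, with differences of 0.34 ± 0.12 for Gfi1b (limma adjusted p = 0.359) and 0.72 ± 0.12 for Hemgn (limma adjusted p = 0.144). Klf1 thus lay on the other side of 0 from the other two regulators.

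Promoter windows of 300 bases, 250 before and 50 after the annotated start, were taken from RefSeq (mouse GRCm38.p6) to show the sequence beside these values. They are printed 5′ to 3′ on the gene's strand, with capitals marking matches on either strand to CCACCC, to CCNCNCCC (the KLF1 word) or to the GATA words AGATAA and TGATAA; the first pair can overlap. Klf1 is shown as the regulator and Hemgn as the gene with the largest difference between the tissues. The Klf1 window lies at chr8:84901732-84902031 (plus strand) and that of Hemgn at chr4:46404134-46404433 (minus strand).
Klf1: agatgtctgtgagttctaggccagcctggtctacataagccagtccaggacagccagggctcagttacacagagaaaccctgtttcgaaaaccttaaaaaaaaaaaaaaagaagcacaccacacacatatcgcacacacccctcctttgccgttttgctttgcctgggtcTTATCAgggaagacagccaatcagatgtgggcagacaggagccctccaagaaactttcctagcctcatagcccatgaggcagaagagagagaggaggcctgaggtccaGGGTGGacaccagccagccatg
Hemgn: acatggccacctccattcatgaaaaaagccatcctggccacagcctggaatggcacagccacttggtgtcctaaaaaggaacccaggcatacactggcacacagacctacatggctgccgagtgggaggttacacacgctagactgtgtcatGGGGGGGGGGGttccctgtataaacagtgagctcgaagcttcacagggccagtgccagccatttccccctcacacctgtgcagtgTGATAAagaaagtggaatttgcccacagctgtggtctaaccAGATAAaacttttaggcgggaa
The Klf1 window holds 1 GATA word and 1 CCACCC. The Hemgn window holds 2 GATA words, and its 4 overlapping matches to CCNCNCCC all fall in one run of G.

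The probe sets shared by adult globin copies were among the brightest of the arrays, and those of the embryonic beta-like globins were near 0. The probe set that the annotation assigns jointly to Hbb-b1, Hbb-b2, Hbb-bs and Hbb-bt, copies of adult beta-globin, was at 11201 and 10410 in mouse 1 and at 11006 and 10609 in mouse 2. The highest values of any probe set on the 4 arrays lay between 12299 and 13690. The 3 probe sets shared by the adult alpha-globin copies Hba-a1 and Hba-a2 were also bright, and all of them read lower in spleen than in blood of the same mouse. The first was at 3556 and 2976 in mouse 1 and at 5305 and 4380 in mouse 2. The second was at 6713 and 6148 and then 9661 and 8115, and the third at 5594 and 5085 and then 7050 and 6105. In these 3 probe sets the signal differed more between the mice than between the tissues. Its spleen minus blood differences lay between -0.27 and -0.17 and that of the shared beta-globin probe set was -0.08. In a limma fit over 22516 probe sets the lowest adjusted p of these 4 was 0.677, and 0% of all probe sets were called.

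Which copy gives the shared signal cannot be read from these probe sets. The probe set of Hba-a1 alone was dim, at 100.2 and 93.0 in mouse 1 and 80.4 and 64.9 in mouse 2, and so was that of Hba-a2 alone, at 66.4 and 85.2 and then 74.6 and 92.7. Hbb-b2 alone was at 401 and 461 and then 362 and 514, higher in spleen in both mice, while the shared beta-globin probe set was lower in spleen in both. Among embryonic globins, Hbb-y, an embryonic beta-like chain, lay between -20.4 and 2.69 on the 4 arrays, and Hbb-bh1, another, between 13.8 and 28.7. The other probe sets of these 2 genes were no brighter, with means between -13.6 and 12.8. Hba-x, the embryonic alpha-like chain, did reach the filter, at 314 and 326 in mouse 1 and 258 and 261 in mouse 2, and did not separate the tissues (0.03 ± 0.16, limma adjusted p = 0.945).

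**Figure D2:**
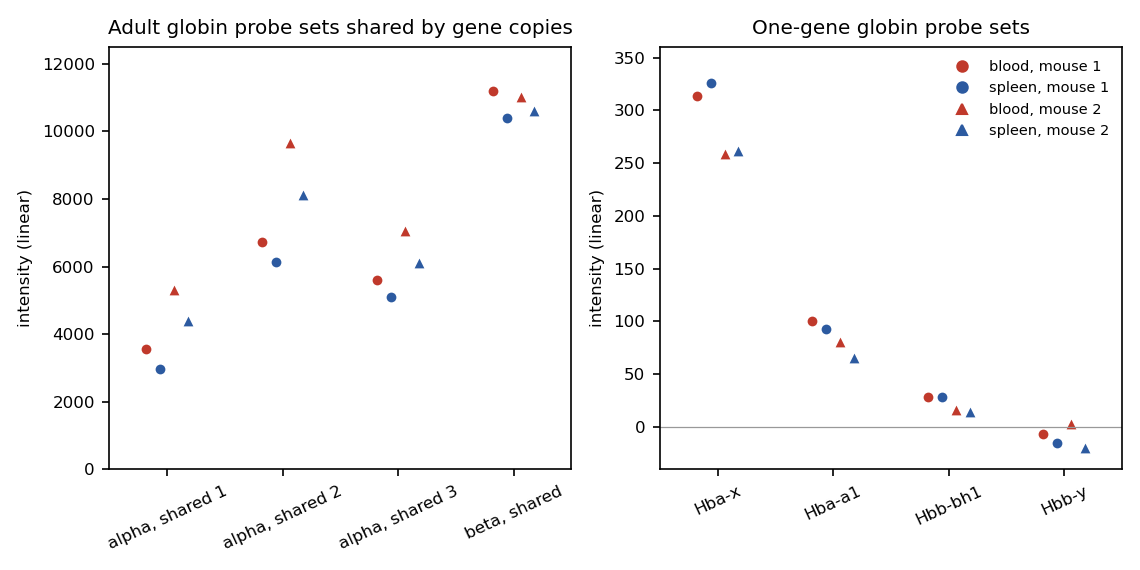
Globin intensities on the 4 arrays on linear axes: left, the 3 probe sets shared by adult alpha-globin copies and the 1 shared by adult beta-globin copies; right, the brightest one-gene probe set of Hba-x, Hba-a1, Hbb-bh1 and Hbb-y. Colours are tissues and symbols are mice; the alpha-globin probe sets are higher in mouse 2 in both tissues, beta-globin lies between 10410 and 11201 throughout, and Hbb-y lies around 0.

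The windows of an adult and an embryonic globin are printed to show both kinds of gene: Hba-a1, one of the copies under the bright shared probe sets, at chr11:32283422-32283721 (plus strand), and Hbb-y, near 0, at chr7:103853158-103853457 (minus strand).
Hba-a1: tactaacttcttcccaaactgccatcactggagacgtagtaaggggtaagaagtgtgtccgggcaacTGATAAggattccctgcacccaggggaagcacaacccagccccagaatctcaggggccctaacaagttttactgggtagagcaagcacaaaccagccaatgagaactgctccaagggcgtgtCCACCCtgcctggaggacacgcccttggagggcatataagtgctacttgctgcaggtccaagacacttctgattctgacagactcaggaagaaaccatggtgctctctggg
Hbb-y: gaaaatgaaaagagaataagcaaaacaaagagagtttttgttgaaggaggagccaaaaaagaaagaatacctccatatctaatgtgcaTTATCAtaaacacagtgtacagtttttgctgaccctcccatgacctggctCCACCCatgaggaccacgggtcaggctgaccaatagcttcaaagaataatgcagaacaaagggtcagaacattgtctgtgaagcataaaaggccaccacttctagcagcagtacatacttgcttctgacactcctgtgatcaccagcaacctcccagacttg
Each of the 2 windows holds 1 CCACCC and 1 GATA word.

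Of the heme synthesis genes analysed, those after the first step were all above the filter. Alas2, the erythroid aminolevulinate synthase that sets the rate of the pathway, was at 13.8 and 15.9 in mouse 1 and at 37.3 and 33.1 in mouse 2. These values are far below the filter on all arrays and do not separate the tissues. Alad, which makes porphobilinogen, was at 3445 and 3770 in mouse 1 and 3419 and 3466 in mouse 2. Uros, which closes the tetrapyrrole ring, ranged from 234 to 282, and Urod, which trims its side chains, from 1642 to 1970. Cpox, the next enzyme, was at 396 and 628 in mouse 1 and at 491 and 646 in mouse 2, higher in spleen in both, with a difference of 0.51 ± 0.14 (limma adjusted p = 0.285). Ppox, which follows it, was at 317 and 263 in mouse 1 and at 337 and 263 in mouse 2, lower in spleen in both, by -0.30 ± 0.11 (limma adjusted p = 0.373). Neighbouring enzymes of the same pathway therefore lay on opposite sides of 0. Fech, which inserts the iron, ranged from 1260 to 1496 with a difference of 0.12 ± 0.12 (limma adjusted p = 0.727).

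Of the iron genes, Tfrc, the transferrin receptor, was at 3290 and 2741 in mouse 1 and at 3205 and 2426 in mouse 2. Both spleen arrays were below both blood arrays, with a difference of -0.33 ± 0.12 (limma adjusted p = 0.366). Slc25a37, the mitochondrial iron importer mitoferrin, ranged from 292 to 346 and the tissues overlapped. The Alas2 window, at chrX:150547167-150547466 (plus strand), is printed because Alas2 is the one heme synthesis gene analysed that lay below the filter.
Alas2: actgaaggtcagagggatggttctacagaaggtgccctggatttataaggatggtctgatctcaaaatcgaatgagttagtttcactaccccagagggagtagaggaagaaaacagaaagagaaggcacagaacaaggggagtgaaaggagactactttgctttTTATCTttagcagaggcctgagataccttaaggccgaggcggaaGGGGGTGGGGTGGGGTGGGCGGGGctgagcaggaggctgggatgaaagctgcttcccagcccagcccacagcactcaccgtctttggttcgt
It holds 3 matches to CCACCC, 4 to CCNCNCCC, which overlap them, and 1 GATA word.

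The membrane skeleton was represented unevenly. Gypc, glycophorin C, was at 1065 and 1095 in mouse 1 and at 1008 and 1098 in mouse 2. Ank1, the ankyrin that ties spectrin to the anion exchanger, was at 399 and 285 in mouse 1 and at 362 and 365 in mouse 2, so that it was lower in spleen in mouse 1 and differed by 0.01 in mouse 2. Sptb, the erythroid beta-spectrin, ranged from 204 to 243, and Add2, the beta-adducin that caps the actin junctions, from 250 to 296. Neither passed the test, with limma adjusted p of 0.961 and 0.712. Epb42, which binds the anion exchanger from inside, was at 141 and 101 in mouse 1 and at 102 and 80.9 in mouse 2, near or below the filter.

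Slc4a1, the anion exchanger and the most abundant protein of the mature red cell membrane, gave 2 different pictures. Its brightest probe set was at 466 and 555 in mouse 1 and at 462 and 508 in mouse 2, higher in spleen in both (0.19 ± 0.11, limma adjusted p = 0.539). Its other 2 probe sets lay between 4.43 and 31.0 and between 7.58 and 27.3 on the 4 arrays, far below the filter. The statement that Slc4a1 is present therefore rests on 1 of its 3 probe sets.

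Of the 4 blood group antigen genes, 3 reached the filter and Rhd did not. Rhag, the Rh-associated glycoprotein needed to bring the Rh complex to the surface, was at 2448 and 2343 in mouse 1 and at 1985 and 1813 in mouse 2. Rhd itself ranged from 29.9 to 40.1, below the filter on every array. Ermap, an erythroblast membrane protein that carries the Scianna antigens, ranged from 467 to 551. Kel, the endopeptidase that carries the Kell antigens, was at 1389 and 1122 in mouse 1 and at 1672 and 1191 in mouse 2. Both spleen arrays of Kel were below both blood arrays, with a difference of -0.39 ± 0.13 (limma adjusted p = 0.349), the lowest among the 26 genes tested. Its window, at chr6:41704276-41704575 (minus strand), is printed for that reason.
Kel: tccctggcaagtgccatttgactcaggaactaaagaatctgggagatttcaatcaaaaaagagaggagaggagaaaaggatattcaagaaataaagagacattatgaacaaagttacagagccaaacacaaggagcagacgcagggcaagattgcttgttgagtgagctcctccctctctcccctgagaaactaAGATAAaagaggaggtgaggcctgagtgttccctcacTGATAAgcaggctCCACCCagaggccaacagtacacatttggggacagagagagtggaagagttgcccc
It holds 2 GATA words and 1 CCACCC.

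All 6 red cell enzymes and late maturation genes were above the filter. Car1, the red cell carbonic anhydrase, was at 6294 and 6311 in mouse 1 and at 6308 and 6053 in mouse 2, and Car2, its more active relative, ranged from 4428 to 4775. Tspo2, an erythroid cholesterol-binding protein, ranged from 2305 to 2522. Bpgm, which makes the bisphosphoglycerate that lowers the oxygen affinity of hemoglobin, ranged from 192 to 235. None of these passed the test between the tissues, with limma adjusted p between 0.609 and 0.955. Xpo7, a nuclear transport receptor used as erythroblasts condense their nuclei, was at 1120 and 1289 in mouse 1 and at 1136 and 1277 in mouse 2, higher in spleen in both (0.18 ± 0.11, limma adjusted p = 0.535). Trim10, a protein of terminal erythroid differentiation, was at 687 and 756 in mouse 1 and at 609 and 519 in mouse 2, and so went opposite ways in the mice.

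Between blasts of the spleen and of the blood, no gene of the programme passed the test. With limma, 0 of the 26 genes had an adjusted p under 0.05, against 0% of all 11614 genes tested. None of the 26 was called under any of 13 other settings of the analysis. At an unadjusted p under 0.05 there were 3 higher in spleen, Hemgn, Cpox and Gfi1b, where 8.12% of all genes are, and 3 lower, Kel, Ppox and Tfrc, where 4.31% are. No exact test of 2 arrays against 2 can go below p = 0.333.

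By direction the genes lay close to the background. Higher in spleen in both mice were 10 of the 26 (38.5%), against 38.5% of all genes tested. Lower in both were 8 (30.8%), against 25.1%, and the other 8 went opposite ways. The balance depended on the scaling. With each array centred on its median, 14 were higher and 5 lower in both, against 47.2% and 19.6% of all genes, and with quantile normalization 7 were higher and 9 lower, against 34.4% and 30.6%. Both spleen arrays lay above both blood arrays for 9 genes, where 27.5% of all genes do, and below them for 6, where 17.6% do. A share this near the background is not a result about the erythroid genes. The median difference of the 26 was 0.05 in mouse 1 and -0.01 in mouse 2, beside 0.07 and 0.01 for all genes tested.

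By group, the 3 regulators had a median of 0.29 in mouse 1 and 0.40 in mouse 2, the 8 heme and iron genes tested 0.18 and -0.09, and the 5 membrane skeleton genes -0.14 and 0.11. The 3 blood group genes had -0.06 and -0.13, and the 6 enzymes and late genes 0.03 and -0.05. The regulators' median was that of Gfi1b, between Klf1 below 0 and Hemgn above it. Hemgn was the single gene of the 26 that differed by at least 0.5 the same way in both mice, where 2.16% of all genes do. Within 0.25 of 0 in both mice were 17 of the 26, or 65.4%, against 51.9% of all genes tested.

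**Figure D3:**
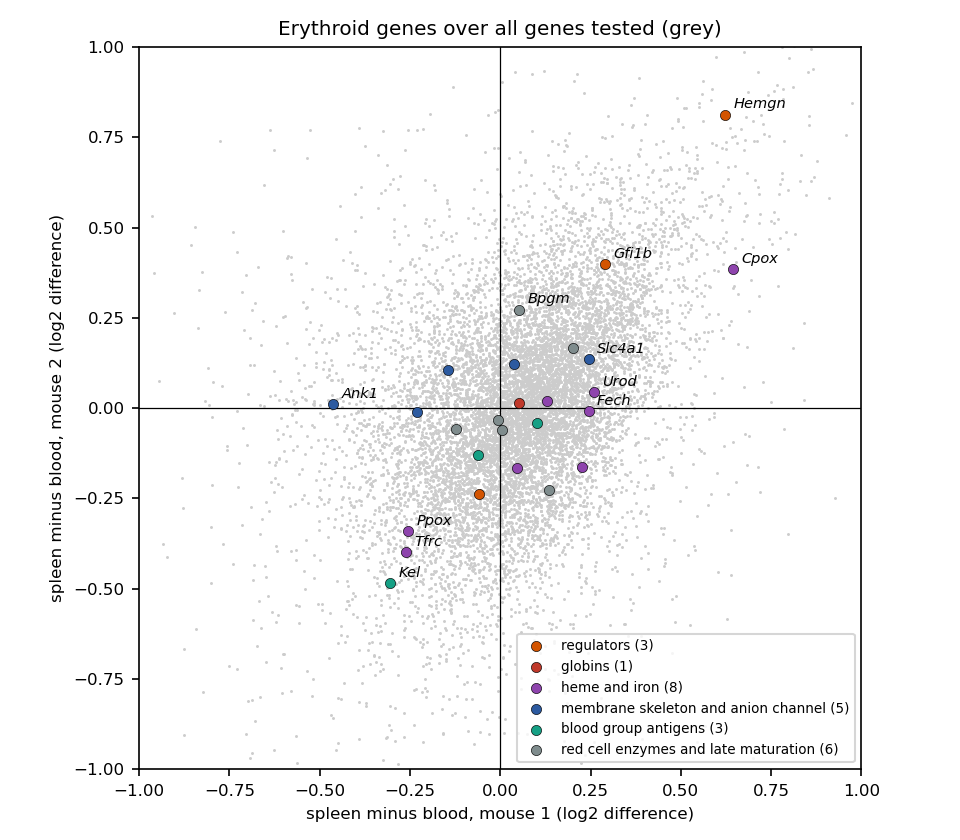
Spleen minus blood difference (log2) in mouse 1 on the horizontal and in mouse 2 on the vertical axis. Grey points are the genes tested (220 lie outside the plotted range) and coloured points the 26 erythroid genes tested, by role; genes beyond 0.24 in a mouse are named. Hemgn, Cpox and Gfi1b lie at the upper right, Kel, Tfrc and Ppox at the lower left, and Ank1 at the far left, at -0.46 in mouse 1 and 0.01 in mouse 2.

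Markers of other cells, and of megakaryocytes as the type of this leukemia, varied over the same arrays. None of those tested was called with limma. Over all genes with a probe set, 32.9% were higher and 26.7% lower in spleen in both mice. Of 13 granulocyte markers, 9 were lower in spleen in both mice and 2, Prtn3 and Ctsg, were higher. Prtn3 was at 951 and 1609 and then 931 and 1340, and Ctsg at 529 and 758 and then 616 and 784. The summed intensity of the 13 was 8482 and 6741 in mouse 1 and 18863 and 3453 in mouse 2, with S100a8 and S100a9 weighing most. S100a8, a neutrophil calcium-binding protein, was at 2346 and 1185 and then 5601 and 178. The summed intensity of 12 macrophage markers was 1111 and 2274 in mouse 1 and 3045 and 1071 in mouse 2. Of these, Csf1r, the receptor of the macrophage growth factor, was at 270 and 387 and then 1326 and 110, Mpeg1 at 71.8 and 184 and then 708 and 24.7, and Adgre1 at 85.9 and 145 and then 211 and 69.4. Cd163 lay between 18.6 and 23.8, and C1qa was below 0 on all arrays but spleen of mouse 1. Csf1r, Mpeg1 and Adgre1 were thus higher in spleen of mouse 1 and in blood of mouse 2. Vcam1 went the other way, at 323 and 165 and then 259 and 313. Of the 12 macrophage markers, 4 were higher in spleen in both mice and 2 were lower in both. The 4 were Slc40a1, Cd163, C1qc and Cd5l, and the 2 were Spic and Marco. Slc40a1 was at 21.9 and 348 and then 119 and 124. The 10 T, NK and B cell markers summed to 6844 and 7929 in mouse 1 and to 9407 and 5202 in mouse 2. Of these, Gzma, a granule protease of killer cells, was at 1338 and 2757 and then 3486 and 171, and the sum largely followed it. In mouse 1 Gzma, Klrd1, Ighm and Cd8a read higher in spleen, while Cd3e, Cd3g, Cd4, Nkg7, Cd79a and Ms4a1 read lower. Nkg7 was at 3675 and 3556 and then 4159 and 3590. Higher in spleen in both mice were 0 of the 10, and 4 were lower in both: Cd3g, Cd4, Nkg7 and Ms4a1. Of 12 megakaryocyte markers, 10 were higher in spleen in both mice and 1, the platelet tubulin Tubb1, was lower, and their sum was 18779 and 21935 in mouse 1 and 18686 and 23421 in mouse 2. The part of cells other than the blasts in the values of the erythroid genes was not tested. In sorted bulk cells, fewer cells of a type and less RNA per cell cannot be told apart. The summed intensity of the 32 erythroid genes lay between 35396 and 38064 on the same arrays. This sum leaves out the shared adult globin probe sets, and bright genes such as Car1 and Car2 weigh most in it.

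The mice were compared with 1 animal on each side and no test. The 3 probe sets shared by the adult alpha-globin copies were higher in mouse 2 in both tissues, by 0.58, 0.52 and 0.33 in blood and by 0.56, 0.40 and 0.26 in spleen. The dim probe set of Hba-a1 alone went the other way, by -0.27 in blood and -0.43 in spleen. The shared beta-globin probe set differed by -0.03 and 0.03; its mean intensity lies at percentile 99.95 of all probe sets, and whether its signal was near saturation was not tested. Of the 26 genes tested, 0 had both arrays of mouse 2 above both of mouse 1, where 15.6% of all genes tested do, and 6 had both below, where 18.2% do. These 6 were Hba-x, Slc25a37, Ermap, Rhag, Car2 and Trim10. Rhag differed by -0.30 in blood and -0.37 in spleen, Hba-x by -0.26 and -0.30, and Trim10 by -0.17 and -0.53. Lower in mouse 2 in both tissues were 11 genes, or 42.3% against 30.7% of all genes tested. Higher in both were 2, Cpox and Kel, against 27.4%. Of the dim genes below the filter, Alas2 was higher in mouse 2, by 0.84 in blood and 0.62 in spleen. Hba-a1, Hbb-bh1 and Epb42 were lower in mouse 2 in both tissues.

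**Figure D4:**
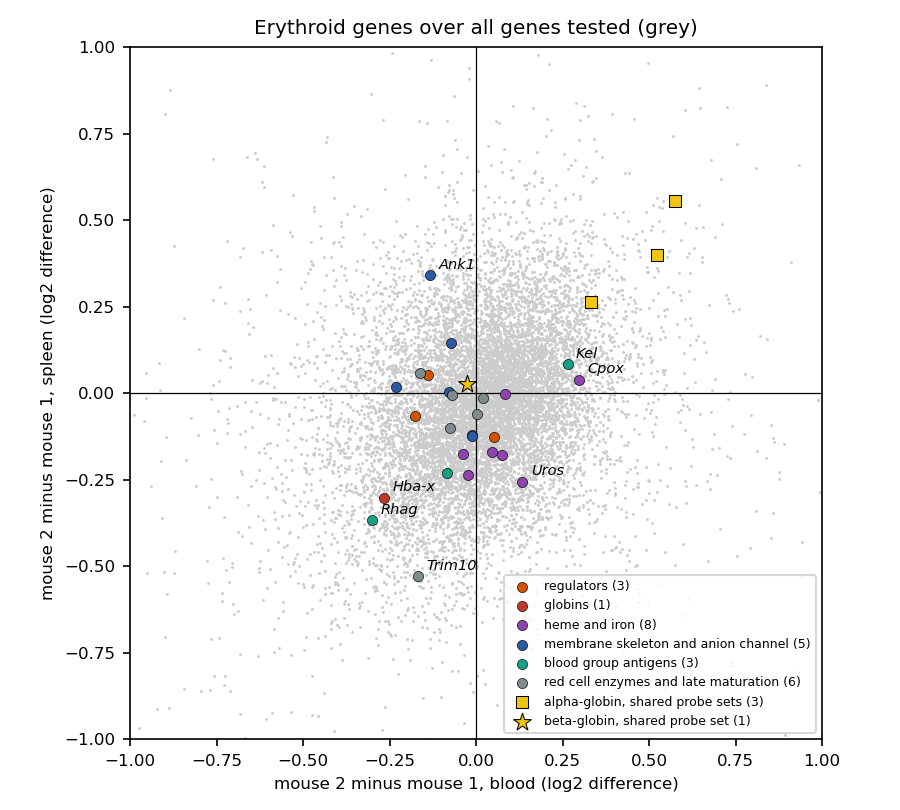
Difference of mouse 2 minus mouse 1 (log2) in blood on the horizontal and in spleen on the vertical axis. Grey points are the genes tested (148 lie outside the plotted range), coloured points the 26 erythroid genes tested, yellow squares the 3 shared alpha-globin probe sets and the star the shared beta-globin probe set; the squares lie at the upper right, Hba-x, Rhag and Trim10 at the lower left, and the star near the origin.

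Probe sets of one gene did not always tell the same story. The 32 genes had 71 one-gene probe sets, among them 3 controls of the array for Tfrc, and 39 reached the median. Of the 16 genes with 2 or more, 6 had the same sign of the tissue difference in all of them: Urod, Cpox, Ppox, Slc4a1, Epb42 and Bpgm. Cpox had differences of 0.51, 0.24 and 0.15, the last from a dim probe set, and with the mean of the 3 it differed by 0.30. Ppox had -0.30, -0.28 and -0.25. Tfrc had -0.33, -0.28 and -0.13 in its 3 probe sets above the median, all below 0 in both mice. It went both ways in the 3 dim ones. With the mean of its 3 probe sets that are not controls of the array, Tfrc differed by -0.14. Fech had 0.12, 0.35 and 0.00 above the median, and Alad had 0.07 and -0.05. Xpo7 had 0.18 and 0.27 in its 2 bright probe sets, each higher in spleen in both mice. Hemgn, Gfi1b, Kel and Klf1 have a single probe set, so their differences have no second measurement on the array. Alas2 and Rhd also have 1 each, so their low readings have no second measurement either.

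**Figure D5:**
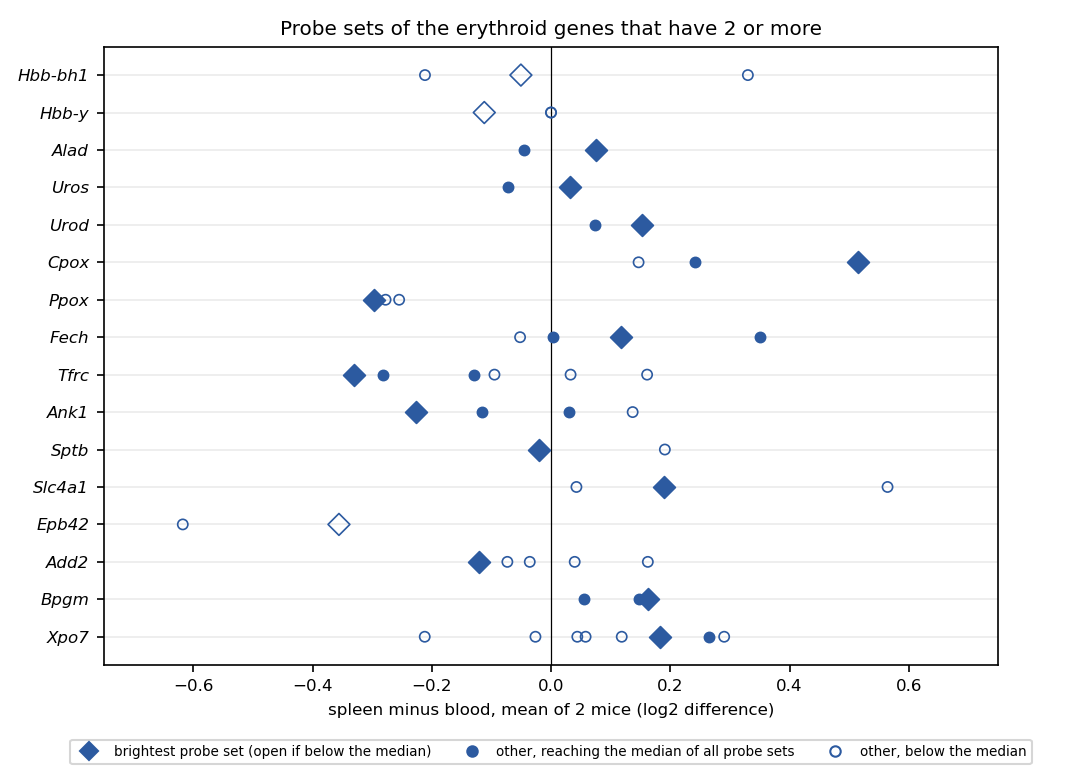
Spleen minus blood difference (log2, mean of the 2 mice) of every probe set of the 16 erythroid genes that have 2 or more. Diamonds are the brightest probe set of a gene, circles the others, and open symbols lie below the median of all probe sets; those of Cpox lie right of 0, those of Ppox and Epb42 left of it, and those of Xpo7 and Tfrc on both sides among the dim ones.

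No other gene of the red cell path that was tested passed the test. Of 41 further erythroid genes with a probe set, 38 were tested and 0 were called with limma; 14 were higher and 13 lower in spleen in both mice, against 38.5% and 25.1% of all genes, and 3 had an unadjusted p under 0.05, all higher in spleen, against 8.12% of all genes. Those highest by the smaller of the 2 within-mouse differences were the heme exporter Flvcr1 (0.35 ± 0.12), the adhesion protein Icam4 (0.27 ± 0.11), the urea transporter Slc14a1 (0.33 ± 0.13), Hbb-b2 (0.34 ± 0.12) and the glucose transporter Slc2a1 (0.18 ± 0.11). Those lowest were the mitochondrial glycine carrier Slc25a38 (-0.23 ± 0.11), the transcription factors Sox6 (-0.40 ± 0.20) and Foxo3 (-0.31 ± 0.13), the actin capping protein Tmod1 (-0.17 ± 0.15) and the corepressor Cbfa2t3 (-0.12 ± 0.11). The limma adjusted p of these 10 lay between 0.343 and 0.708. Epor, the erythropoietin receptor, was at 847 and 878 in mouse 1 and at 1186 and 1220 in mouse 2, higher in mouse 2 in both tissues. Tal1 ranged from 1381 to 1557 and Nfe2 from 4814 to 5339, both factors shared with megakaryocytes.

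The promoter windows were also counted over the group. Of the 35 genes, 24 had windows in the RefSeq table that were counted, with any on chromosome 18 left out. The shares over all genes had no such exclusion applied. A GATA word was found for 15 of the 24 (62.5%), against 21.0% of the 27025 genes with a window. CCACCC or CCNCNCCC was found for 23 (95.8%) against 60.5%, and both kinds for 13 (54.2%) against 8.68%. A GATA word stood in the windows of 10 of the 18 genes above the brightness filter and of all 5 below it, Alas2, Epb42, Hba-a1, Hbb-y and Rhd; the other gene with a window had no probe set of its own. A match is a description of letters, not a binding site.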

How the data were processed

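Total RNA of sorted blasts was hybridised to Affymetrix mouse arrays as biotinylated cRNA, per the labels' protocols. What the authors deposited is 1 intensity per probe set and array, on a linear scale. Their summary, background and scaling methods are not given in the sources used here and their scaling was kept. Values below 0, between 1.60% and 2.17% of an array, were set to 0, 16 was added and log2 taken, which understates changes of dim genes. Of 45101 probe sets, 34945 had 1 gene symbol in the platform annotation, 932 several and 9160 none, and 64 were controls; symbols were updated by Entrez identifier (RefSeq, GRCm38.p6). Each of 18193 genes was represented by its brightest probe set, and 11614 reached the median.

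The tissues were compared in R 4.3.3 by limma 3.58.1 (lmFit, eBayes, two-sided), tissue as sole term, Benjamini-Hochberg over all genes. Errors are standard errors of this fit, whose variances are moderated towards a prior over all genes, so that they have a common lower level of about 0.11 even where the mice agree. Arrays of one animal are paired, since the labels name its mouse for both tissues; the mouse 2 minus mouse 1 differences of blood and of spleen correlated at r = 0.10 over genes, which are not independent replicates. The design, lists and rule for named genes (all members, the 5 highest and 5 lowest further erythroid genes and 3 for level, the leading markers) were written with earlier results of these data known. Other settings were offset, filter, scaling, probe set choice, variance prior, block and leaving out each array, and a fit over all probe sets was added after the data were seen. Data of spleen against blood were simulated on 11614 genes, 200 of them changed, with equal effects in both mice. Noise was drawn independently for each array, without pairing by mouse. There, 76.4% of 2-fold and 98.0% of 4-fold changes were recovered, and these shares hold for that setting only. On the real arrays the megakaryocyte marker Treml1, at 1.61 ± 0.17, was not called (limma adjusted p = 0.140). The number of arrays limits precision.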

Additional observations from a re-analysis of the deposited data

How the results depend on the processing

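None of the erythroid genes was called under any of the 13 settings. Over all genes the count of 0 (1443 at an unadjusted p under 0.05) became 45 with an intensity trend in the variance prior, and 0 to 20 when each array was left out, the 20 without spleen of mouse 1; the cause was not tested. With arrays centred on their medians, 5 erythroid genes in place of 8 were lower and 14 in place of 10 higher in spleen in both mice (9 and 7 with quantile normalization), the group median of all tested went from 0.0055 to 0.049 and that of globins from 0.034 to 0.077, while the median of all genes went from 0.03 to 0.07. Without the brightness filter the globin median was -0.081, as 4 genes entered in place of 1. Quantile normalization moved the blood group median from -0.10 to -0.17. Leaving out each array gave medians of 0.26 to 0.43 for regulators, -0.12 to 0.18 for globins and -0.041 to 0.15 for heme and iron. They were -0.13 to 0.096 for the membrane skeleton, -0.28 to 0.087 for blood group genes and -0.064 to 0.082 for enzymes and late genes. For all tested the median was -0.057 to 0.11, so that only the regulators' median kept its sign. That median was the value of Gfi1b each time, while Klf1 stayed below 0. The globin values here are those of Hba-x alone. With the mean of all probe sets the heme and iron median went from 0.054 to -0.0025 and the membrane median from -0.019 to 0.080. Of the 26 genes tested, 17 kept the sign of their difference under every setting, Hemgn, Gfi1b, Cpox, Kel, Ppox and Tfrc among them. The limma adjusted p of Hemgn ranged from 0.056 with the trend to 0.693 without blood of mouse 2. With mouse as the replicate block, which uses the pairing, 0 genes were called, Hemgn had a limma adjusted p of 0.173 and no call changed. With 2 arrays per tissue, a difference that misses the threshold is not shown to be absent.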

Other observations

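The array holds 3 control probe sets for parts of the Tfrc transcript, which the annotation also pairs with Tfrc. The probe set of its 3′ end was at 214 (blood) and 158 (spleen) in mouse 1 and at 179 and 158 in mouse 2, lower in spleen in both. Those of the middle were at 102 and 132 and then 89.3 and 89.1, and those of the 5′ end at 66.8 and 64.3 and then 55.3 and 48.4. A probe set shared by Slc25a37 and Gm16867 was at 71.3 and 74.0 in mouse 1 and 56.5 and 51.1 in mouse 2.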
